A study of Mus musculus with 8 samples.

Results

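Genes of fatty acid oxidation and ketone body metabolism were examined in the ileum of male KKAy mice given the alpha-glucosidase inhibitor voglibose or water. The set held 37 genes chosen by name for their place in the pathway: the carnitine shuttle, the mitochondrial and peroxisomal enzymes of beta-oxidation, the enzymes of ketone bodies, and further genes that the fatty acid receptor PPAR alpha controls. Of these, 34 had a probe set on the array under their symbol and 3 (Etfb, Acsl1 and Acsl3) had none and were not analysed here. Each of the 34 had 1 probe set, out of 19505 genes measured. KKAy mice carry the yellow agouti allele and become obese and diabetic, and no group of another strain was included. All mice were listed as 14 weeks old, with no word on whether at the start or the end, and ate a diet with 45% of energy from fat. After 4 weeks on it, 4 mice received voglibose (1 mg/kg) and 4 received the same volume of water, by gavage each day over 8 weeks. About 4 cm of ileum per mouse gave the RNA for 1 Affymetrix array, and values are log2 signals per probe set, so differences are on the log2 scale.

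Long-chain fatty acids enter mitochondria as carnitine esters and are shortened there by a repeated cycle of dehydrogenation, hydration, a further oxidation and thiolysis, which yields acetyl-CoA. Peroxisomes run a parallel cycle on very long, branched and some unsaturated chains and pass the shortened products on. Acetyl-CoA can be turned into ketone bodies or, in tissues that use them, be recovered from them. In the small intestine, absorptive enterocytes meet dietary fat directly, and PPAR alpha is known to control many of these genes there.

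The labelled tissue was checked first. Enterocyte markers were bright in every mouse, with a mean over 12 genes between 17.13 and 17.30. Markers of the distal ileum varied widely. Fabp6, the bile acid binding protein of ileal enterocytes, read 8.51, 17.50, 14.11 and 4.01 in water mice 1 to 4 and 8.14, 3.54, 10.78 and 11.68 in voglibose mice 1 to 4. The values of water mouse 4 and voglibose mouse 2 lay below the lower quartiles of the arrays (4.05 to 4.18), so this defining ileal marker was near background level in both. The mean over 8 distal ileum markers was also the lowest of each group in these mice (9.56 and 9.60). Of these markers, Slc51b (15.93 and 15.31), Cubn (14.46 and 14.76) and Slc51a (13.01 and 12.87) stayed bright in them. Cbl varied little, from 9.81 to 10.60 over all mice. Acinar pancreas genes read near background in 7 mice, where the mean over 5 genes had a range from 4.02 to 4.34 in the water mice, but it was 10.80 in voglibose mouse 2. Over 7 fat cell markers the mean lay between 5.84 and 6.83, highest in water mouse 2. Fabp4 (11.57 to 12.69) and Cidec (10.18 to 10.85) were bright in all mice, while Adipoq and Lep had their highest values, 5.40 and 5.56, in water mouse 2. Over 6 liver cell markers the mean lay between 6.97 and 7.38. Of these, Cps1 (15.71 to 16.46), which enterocytes also express, and Serpina1a (6.89 to 10.13) were bright, and Alb stayed between 3.78 and 4.48. Smooth muscle markers, 8 genes, had means from 10.43 in water mouse 4 to 13.39 in water mouse 2, and leukocyte markers, 8 genes, from 9.48 in water mouse 2 to 11.10 in water mouse 1. Array medians lay between 5.89 and 5.94.

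Differences between voglibose and water mice in these genes were small, and none passed the adjusted test. The mean signal was lower in voglibose mice for 25 of 34 members (73.5%), against 50.9% of all probe sets and 57.0% of the probe sets above the median signal, to which all 34 members belonged. After a further quantile normalization the count was 21 of 34. The median difference of the members was -0.089, against -0.005 over all probe sets and -0.042 over those above the median signal, and it was -0.17 without voglibose mouse 2 or voglibose mouse 4. At an unadjusted p under 0.05 there were 8 members (limma), 23.5% of them, against 7.52% of all probe sets and 9.65% of those above the median signal. Of these, 3 were higher in voglibose mice (background 3.08%, or 2.57% above the median signal) and 5 were lower (background 4.44%, or 7.08% above the median signal). No member passed the test over all probe sets, the adjusted p lay between 0.652 and 0.997 (limma, Benjamini-Hochberg), and 0 probe sets of the array passed. The groups did not overlap in 5 members, against 4.35% of all probe sets and 5.17% of those above the median signal. Decr2 and Acaa1a were higher in all 4 voglibose mice (background 1.82%, or 1.48%), and Eci1, Crot and Acat1 were lower (background 2.53%, or 3.69%). The count of 8 was 5 without voglibose mouse 1, 5 without voglibose mouse 2, 4 without both water mouse 4 and voglibose mouse 2, and 5 without moderation of the variance.

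**Figure D1:**
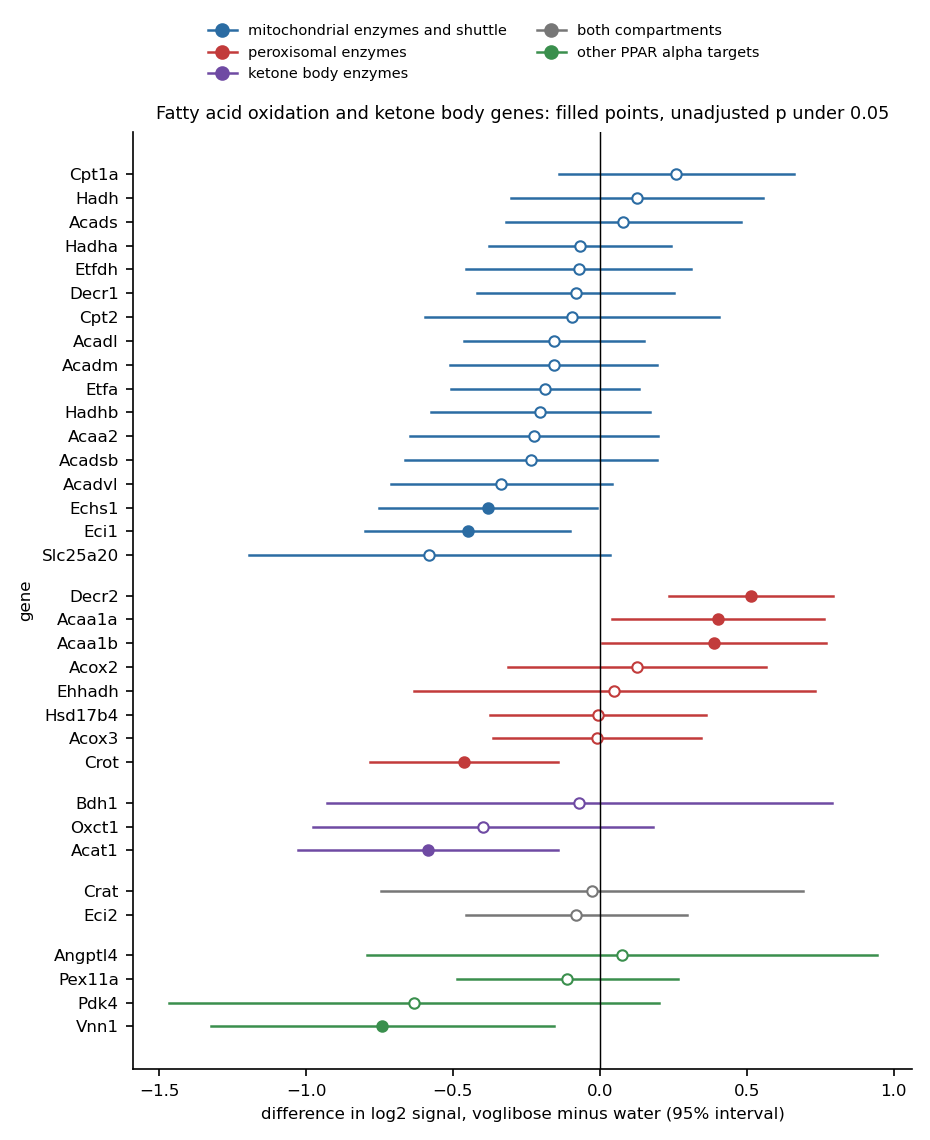
Difference in log2 signal between voglibose and water mice for the 34 members, with 95% intervals from limma, sorted within mitochondrial, peroxisomal, ketone body, dual-compartment and other genes. Filled points mark the 8 members at an unadjusted p under 0.05, of which 3 peroxisomal genes lie to the right of 0 and 5 members to the left; none passed after adjustment.

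Decr2 encodes the peroxisomal dienoyl-CoA reductase, an auxiliary enzyme that lets polyunsaturated chains through beta-oxidation. It read 8.11, 8.18, 8.19 and 8.10 in water mice 1 to 4 and 8.73, 8.75, 8.59 and 8.57 in voglibose mice 1 to 4. Every voglibose mouse lay above every water mouse, and the mice of 1 group were close together. The difference was 0.52 ± 0.13 (SE; 95% interval 0.24 to 0.79), a 1.43-fold higher signal, with an unadjusted p = 0.00183 and an adjusted p = 0.652 (limma). Without any single mouse it stayed between 0.49 and 0.55. The mitochondrial reductase Decr1, which does the same step in the other organelle, averaged 12.39 ± 0.11 (SD, n = 4) with water and 12.31 ± 0.23 with voglibose, a difference of -0.08 ± 0.15 (SE).

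Eci1 encodes the mitochondrial enoyl-CoA isomerase, which moves double bonds of unsaturated chains into the place the cycle requires. It read 8.39, 8.45, 8.42 and 8.41 in water mice and 7.56, 8.15, 8.14 and 8.02 in voglibose mice. The water mice were nearly identical, and all voglibose mice lay below them, voglibose mouse 1 farthest. The difference was -0.45 ± 0.16 (SE; 95% interval -0.80 to -0.10; unadjusted p = 0.0160, adjusted p = 0.652, limma), and -0.31 without voglibose mouse 1. Eci2, an isomerase found in both mitochondria and peroxisomes, differed by -0.08 ± 0.17 (SE) and by 0.02 without voglibose mouse 2.

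Crot, the peroxisomal carnitine octanoyltransferase that prepares medium-chain products for transfer to mitochondria, was the one peroxisomal member with a lower mean at an unadjusted p under 0.05. It read 14.98, 15.01, 15.13 and 15.36 in water mice and 14.47, 14.79, 14.70 and 14.67 in voglibose mice, without overlap. The difference was -0.46 ± 0.15 (SE; 95% interval -0.78 to -0.14; unadjusted p = 0.00858, adjusted p = 0.652, limma). Crat, the carnitine acetyltransferase of mitochondria and peroxisomes, differed by -0.03 ± 0.33 (SE) and turned direction in 5 of the 8 sets that left out 1 mouse and after a further quantile normalization.

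Acaa1a and Acaa1b encode paired peroxisomal ketoacyl-CoA thiolases, which cut acetyl-CoA from the chain in the last step. Acaa1a read 10.41, 10.52, 10.43 and 10.42 in water mice and 10.94, 11.23, 10.65 and 10.57 in voglibose mice, without overlap and with the widest spread in the treated group. The difference was 0.40 ± 0.16 (SE; unadjusted p = 0.0325, adjusted p = 0.658, limma) and 0.28 without voglibose mouse 2. Acaa1b read 7.52, 8.07, 7.97 and 7.80 in water mice and 8.31, 8.49, 7.92 and 8.20 in voglibose mice, where voglibose mouse 3 fell inside the water range. Its difference was 0.39 ± 0.17 (SE; unadjusted p = 0.0459, adjusted p = 0.659, limma) and 0.28 without water mouse 1. The proteins are close paralogs, so probes of each gene could detect both transcripts, and their like differences are uncertain as separate measurements.

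**Figure D2:**
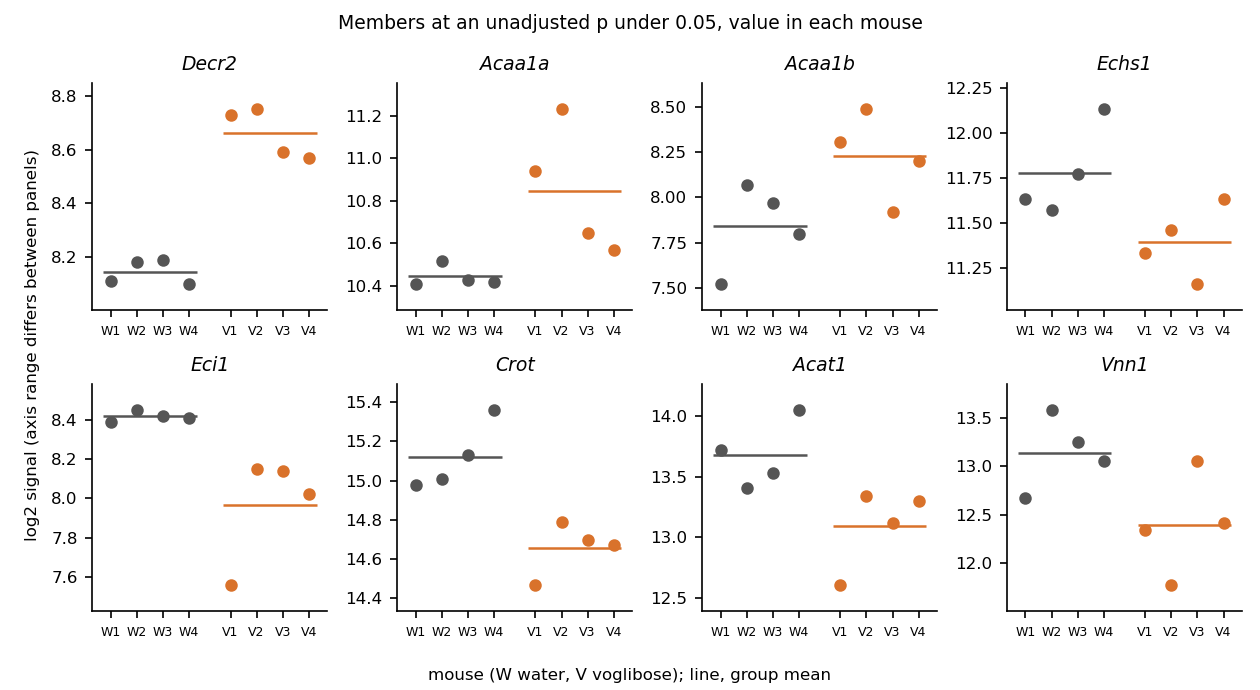
Log2 signal in each of the 4 water (W) and 4 voglibose (V) mice for the 8 members at an unadjusted p under 0.05, with lines at the group means and an axis of its own for each gene. Decr2 shows groups well apart, at 8.10 to 8.19 in water and 8.57 to 8.75 in voglibose mice, while Acaa1b, Echs1 and Vnn1 overlap.

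The sequences before the transcript starts of the genes whose groups did not overlap are given so that members that differed in opposite directions can be set side by side, with Acaa1b added as the paralog of Acaa1a. RefSeq (GRCm38.p6) gave windows for 27 of the 34 members, 29 windows in all, and each covers the 250 bases before a listed start. That start lay 158 bases from the nearer end of the annotated gene in Decr2 and 266 in Acaa1a. In Acaa1b, Eci1 and Crot it lay 0 bases from it. Capitals mark the CCAAT box (CCAAT or, on the other strand, ATTGG) and the GC box (GGGCGG or CCGCCC). All sequences run 5′ to 3′ on the gene's strand.
Decr2, chr17:26090165-26090414, minus strand: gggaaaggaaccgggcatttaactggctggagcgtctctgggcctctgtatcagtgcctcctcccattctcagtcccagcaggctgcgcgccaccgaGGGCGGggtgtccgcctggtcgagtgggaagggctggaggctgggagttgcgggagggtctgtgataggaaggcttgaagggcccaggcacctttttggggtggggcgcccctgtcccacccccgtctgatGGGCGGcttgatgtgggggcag
Acaa1a, chr9:119341044-119341293, plus strand: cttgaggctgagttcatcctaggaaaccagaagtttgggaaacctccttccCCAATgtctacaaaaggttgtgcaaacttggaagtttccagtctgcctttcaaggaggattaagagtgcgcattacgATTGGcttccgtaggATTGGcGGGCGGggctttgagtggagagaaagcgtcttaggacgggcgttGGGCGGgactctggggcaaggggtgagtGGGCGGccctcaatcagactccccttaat
Acaa1b, chr9:119157094-119157343, minus strand: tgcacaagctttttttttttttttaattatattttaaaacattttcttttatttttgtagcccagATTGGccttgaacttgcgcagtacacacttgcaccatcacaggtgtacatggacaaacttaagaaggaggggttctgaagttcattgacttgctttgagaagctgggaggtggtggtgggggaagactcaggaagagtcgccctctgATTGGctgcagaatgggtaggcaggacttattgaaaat
Eci1, chr17:24426433-24426682, plus strand: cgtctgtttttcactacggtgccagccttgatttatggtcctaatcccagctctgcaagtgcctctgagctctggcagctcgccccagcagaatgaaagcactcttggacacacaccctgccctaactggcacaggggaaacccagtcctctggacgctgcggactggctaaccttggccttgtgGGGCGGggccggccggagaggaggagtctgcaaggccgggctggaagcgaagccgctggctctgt
Crot, chr5:8997147-8997396, minus strand: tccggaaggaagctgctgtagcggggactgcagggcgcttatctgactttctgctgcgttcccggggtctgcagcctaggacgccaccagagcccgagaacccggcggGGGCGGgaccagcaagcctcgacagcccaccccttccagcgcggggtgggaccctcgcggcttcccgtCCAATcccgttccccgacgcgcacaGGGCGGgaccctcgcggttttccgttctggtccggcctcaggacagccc
The windows of Decr2 and Eci1, which differed in opposite directions, both held GC boxes (2 and 1) and no CCAAT box, and those of Acaa1a and Crot held both motifs. The Acaa1b window had no GC box and 41.6% G and C, against 53.6% in Acaa1a, and the aligned windows were identical at 48.2% of positions. Over all member windows, 17 of 29 (58.6%) held a GC box, against 32.7% of the 32851 windows in the table, and 11 (37.9%) held a CCAAT box, against 33.8%. PPAR alpha binds with its partner RXR to AGGTCA followed, after any 1 base, by AGGTCA again. No member window held that exact repeat on either strand, which occurs in 0.0335% of all windows. A single AGGTCA (or TGACCT), which the repeat contains, was in the windows of Acadm, Acadvl, Cpt1a and Echs1, 13.8% of member windows against 14.0% of all. The E-box CACGTG, the core of carbohydrate response elements, was in 0 member windows and in 6.02% of all. TNAAGGTCA, a motif of estrogen-related receptors that can overlap AGGTCA, was in 0 member windows and 1.14% of all, on both strands. Acat1, Vnn1, Angptl4, Crat, Decr1, Acaa2 and Hsd17b4 were not matched.

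Genes of the carnitine shuttle differed in both directions, and none had an unadjusted p under 0.05. Cpt1a, the outer-membrane transferase that commits long chains to oxidation, read 9.92, 10.73, 10.29 and 10.07 in water mice and 10.50, 10.37, 10.55 and 10.63 in voglibose mice. All water mice but 1 lay below all voglibose mice, and water mouse 2 lay above them. The difference was 0.26 ± 0.18 (SE), and 0.42 without water mouse 2. Slc25a20, the carrier that exchanges acylcarnitine for carnitine across the inner membrane, read 12.10, 13.19, 12.55 and 12.23 in water mice and 11.54, 11.52, 12.47 and 12.22 in voglibose mice. Its difference of -0.58 ± 0.28 (SE; 95% interval -1.19 to 0.03) was the largest of the mitochondrial members, and it was -0.36 without water mouse 2. Cpt2, which releases the acyl-CoA in the matrix, differed by -0.10 ± 0.23 (SE) and by 0.15 without water mouse 3, its highest mouse at 11.69.

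The acyl-CoA dehydrogenases, which start each turn of the cycle for chains of different length, had lower means in voglibose mice in 4 of 5 genes. Acadvl, for very long chains, read 11.72, 11.99, 11.90 and 12.16 in water mice and 11.29, 11.89, 11.77 and 11.48 in voglibose mice, a difference of -0.34 ± 0.17 (SE; 95% interval -0.71 to 0.04) with overlap. Acadl, for long chains, averaged 12.74 ± 0.04 (SD, n = 4) with water and 12.58 ± 0.18 with voglibose, and Acadm, for medium chains, 11.30 ± 0.10 and 11.15 ± 0.27. Their differences were -0.16 ± 0.14 and -0.16 ± 0.16 (SE), and that of Acadm was -0.059 without voglibose mouse 1. Acadsb, which acts on short branched chains, differed by -0.24 ± 0.19 (SE), or -0.11 without voglibose mouse 2 and -0.41 without voglibose mouse 3. Acads, for short chains, differed by 0.08 ± 0.18 (SE), or -0.04 without water mouse 4 and -0.02 without voglibose mouse 2. None of the 5 had an unadjusted p under 0.05.

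The later steps in the matrix also had lower means in 4 of 5 genes. Echs1, the short-chain hydratase, read 11.63, 11.57, 11.77 and 12.13 in water mice and 11.33, 11.46, 11.16 and 11.63 in voglibose mice, where voglibose mouse 4 overlapped the water group. Its difference was -0.38 ± 0.17 (SE; unadjusted p = 0.0455, adjusted p = 0.659, limma), and -0.26 without water mouse 4. The trifunctional protein, which carries out the last steps on long chains, is made of the products of Hadha and Hadhb. Hadha lay between 14.95 and 15.24 in water mice and between 14.84 and 15.19 in voglibose mice, and Hadhb between 14.69 and 15.24 and between 14.52 and 14.89. Their differences were -0.07 ± 0.14 and -0.20 ± 0.17 (SE), and both overlapped between the groups. Acaa2, the mitochondrial thiolase, differed by -0.22 ± 0.19 (SE; -0.10 without water mouse 4), and Hadh, the dehydrogenase for short chains, by 0.13 ± 0.19 (SE; -0.01 without water mouse 2). Electrons from the dehydrogenases pass to the electron transfer flavoprotein and its membrane oxidoreductase. Etfa, its alpha subunit, read 14.26, 14.22, 14.23 and 14.48 in water mice and 13.88, 14.33, 14.14 and 14.09 in voglibose mice, a difference of -0.19 ± 0.15 (SE), and Etfdh, the oxidoreductase, differed by -0.07 ± 0.17 (SE; 0.05 without voglibose mouse 1).

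The other peroxisomal enzymes differed little between the groups. Acox3, an oxidase of branched chains, averaged 9.85 ± 0.26 (SD, n = 4) with water and 9.84 ± 0.12 with voglibose. Hsd17b4, the multifunctional enzyme that hydrates and oxidises branched and very long chains, had 12.83 ± 0.27 and 12.83 ± 0.16, and both turned direction after a further quantile normalization (differences of 0.067 and 0.071). Acox2, the oxidase of bile acid precursors, read 7.17, 7.25, 7.16 and 7.06 in water mice and 7.57, 7.39, 6.66 and 7.53 in voglibose mice. All voglibose mice but voglibose mouse 3 lay above the water mice, and the difference of 0.13 ± 0.20 (SE) became 0.34 without voglibose mouse 3. Ehhadh, the bifunctional enzyme of straight chains and a known PPAR alpha target, differed by 0.05 ± 0.31 (SE; 95% interval -0.63 to 0.73), by 0.29 without water mouse 4 and by -0.19 without voglibose mouse 2.

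Set against each other, mitochondrial and peroxisomal members had median differences of opposite sign. Related genes outside the set did not show this. The median was -0.11 over 14 further peroxisomal oxidation genes and -0.055 over 20 further mitochondrial genes. Of 17 mitochondrial members, 14 had lower means in voglibose mice (82.4%, median difference -0.16), against 57.0% of the probe sets above the median signal. At an unadjusted p under 0.05 there were 2 (11.8%), both lower, near the 9.65% of the probe sets above the median signal (7.08% lower). Of 8 peroxisomal members, 5 had higher means (median 0.09) and 3 lower (37.5%). At that p 3 were higher (37.5%, against 2.57% of the probe sets above the median signal) and 1 lower (12.5%, against 7.08%). Of these 3, the paralogs Acaa1a and Acaa1b are uncertain as separate measurements. The median of the peroxisomal members rests on few genes: it was 0.30 without voglibose mouse 3, 0.20 without water mouse 4, 0.04 without voglibose mouse 1 and 0.02 with Eci2 and Crat added. With each gene centred over the 8 mice, the mean over mitochondrial members was -0.08, 0.16, 0.11 and 0.14 in water mice 1 to 4 and -0.27, -0.02, -0.04 and 0.01 in voglibose mice 1 to 4. That over peroxisomal members was -0.18, -0.06, -0.04 and 0.03 in water mice and 0.10, 0.27, -0.19 and 0.07 in voglibose mice. Both overlapped between the groups. The mitochondrial minus peroxisomal value was 0.10, 0.22, 0.15 and 0.10 in water mice and -0.37, -0.29, 0.15 and -0.06 in voglibose mice. The water mice were within a narrow range, voglibose mice 1, 2 and 4 lay below it, and voglibose mouse 3 lay inside it. The difference between the group means was -0.29 (water 0.14 ± 0.06, voglibose -0.14 ± 0.24, SD, n = 4), and it ran from -0.39 without voglibose mouse 3 to -0.21 without voglibose mouse 1. It has no test, since the genes were chosen with results of these mice known.

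**Figure D3:**
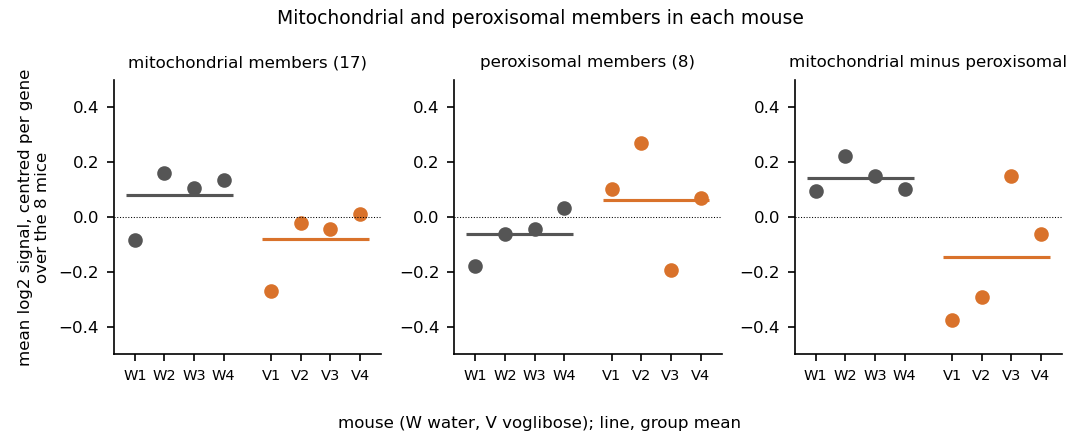
Mean log2 signal, centred per gene over the 8 mice, of the 17 mitochondrial members (left) and the 8 peroxisomal members (middle), and their difference (right), in each water (W) and voglibose (V) mouse, with lines at the group means. In the right panel voglibose mice 1, 2 and 4 lie below the water range of 0.10 to 0.22, and voglibose mouse 3 lies within it at 0.15.

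The 3 measured enzymes of ketone bodies had lower means in voglibose mice. Acat1, the mitochondrial acetoacetyl-CoA thiolase that works in both the making and the use of ketone bodies, read 13.72, 13.41, 13.53 and 14.05 in water mice and 12.61, 13.34, 13.12 and 13.30 in voglibose mice. The groups did not overlap, although water mouse 2 and voglibose mouse 2 were close. The difference was -0.59 ± 0.20 (SE; 95% interval -1.03 to -0.14; unadjusted p = 0.0140, adjusted p = 0.652, limma), and -0.42 without voglibose mouse 1. Oxct1, the transferase that lets tissues use acetoacetate, read 12.54, 13.75, 12.72 and 13.25 in water mice and 12.21, 12.93, 12.67 and 12.86 in voglibose mice, a difference of -0.40 ± 0.26 (SE), or -0.17 without water mouse 2. Bdh1, which interconverts acetoacetate and beta-hydroxybutyrate, read 10.91, 9.85, 11.10 and 11.98 in water mice and 10.68, 11.57, 10.38 and 10.93 in voglibose mice. Its difference of -0.07 ± 0.39 (SE; 95% interval -0.93 to 0.79) was far smaller than the spread in each group, and leaving out water mouse 4 gave 0.27, whereas leaving out water mouse 2 gave -0.44.

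Among the further PPAR alpha targets, Vnn1, a pantetheinase of the enterocyte surface, read 12.67, 13.58, 13.25 and 13.05 in water mice and 12.34, 11.78, 13.05 and 12.42 in voglibose mice. Voglibose mouse 3 lay inside the water range and the others below it. The difference was -0.74 ± 0.27 (SE; 95% interval -1.32 to -0.16; unadjusted p = 0.0177, adjusted p = 0.652, limma), the largest of the 34 members, and it was -0.53 without voglibose mouse 2 and -0.96 without voglibose mouse 3. Pdk4, the kinase that shuts off pyruvate dehydrogenase when fat is burned, read 7.98, 8.95, 9.21 and 10.04 in water mice and 8.84, 8.69, 8.38 and 7.74 in voglibose mice, a difference of -0.63 ± 0.38 (SE; 95% interval -1.47 to 0.20). Leaving out water mouse 4 gave -0.30, and leaving out water mouse 1 gave -0.99. Angptl4, a secreted inhibitor of lipoprotein lipase, read 11.33, 13.21, 12.36 and 12.52 in water mice and 12.91, 11.75, 13.08 and 11.98 in voglibose mice, a difference of 0.08 ± 0.39 (SE), or -0.27 without water mouse 1. Pex11a, which promotes peroxisome division, differed by -0.11 ± 0.17 (SE).

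The spread between mice of 1 group was wide in some members and narrow in others. The pooled within-group SD ran from 0.07 in Decr2 to 0.72 in Angptl4, with a median of 0.24 over the members and of 0.27 over the probe sets above the median signal. In 8 of the 34 members it lay above the 90th percentile of all probe sets: Angptl4, Bdh1, Pdk4, Crat, Ehhadh, Slc25a20, Vnn1 and Oxct1. So it did in 1558 of the 11104 probe sets above the median signal. Only 1 of the 17 mitochondrial members (Slc25a20) was among them. Ehhadh read 12.45, 12.38, 12.87 and 13.54 in water mice and 12.88, 13.59, 12.21 and 12.76 in voglibose mice, and Crat 10.94, 9.98, 11.13 and 11.34 in water mice and 11.08, 11.49, 10.28 and 10.43 in voglibose mice. In Bdh1, Ehhadh and Crat the highest water mouse was water mouse 4 and the highest voglibose mouse was voglibose mouse 2, the mice with Fabp6 near background level. In the same 3 genes water mouse 2, which had the highest Fabp6, was the lowest water mouse, and voglibose mouse 3 the lowest voglibose mouse. Slc25a20, Vnn1, Oxct1 and Angptl4 had their highest value of all 8 mice in water mouse 2, and their lowest water mouse was water mouse 1. Gata4, a factor of the proximal intestine, read 11.48, 9.41, 11.48 and 12.13 in water mice and 11.75, 12.24, 10.73 and 10.65 in voglibose mice. Over 8 proximal markers the centred mean was 0.26, -1.88, 0.12 and 1.23 in water mice and 0.19, 1.21, -0.71 and -0.43 in voglibose mice. Cybrd1, one of these, was instead lowest in water mouse 4, at 5.66. The mean of the smooth muscle markers, centred over the 8 mice, was 0.00, 1.52, -0.35 and -1.44 in water mice 1 to 4 and -0.24, -0.30, 0.74 and 0.07 in voglibose mice 1 to 4, so it too was highest in water mouse 2 and lowest in water mouse 4. That of the leukocyte markers was 0.78, -0.84, -0.06 and -0.09 in water mice and -0.28, 0.41, 0.53 and -0.44 in voglibose mice. The part of the sampled stretch of intestine, of muscle and of leukocytes in the differences of these genes was not tested. In whole tissue, fewer cells of a type and less RNA per cell cannot be told apart.

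**Figure D4:**
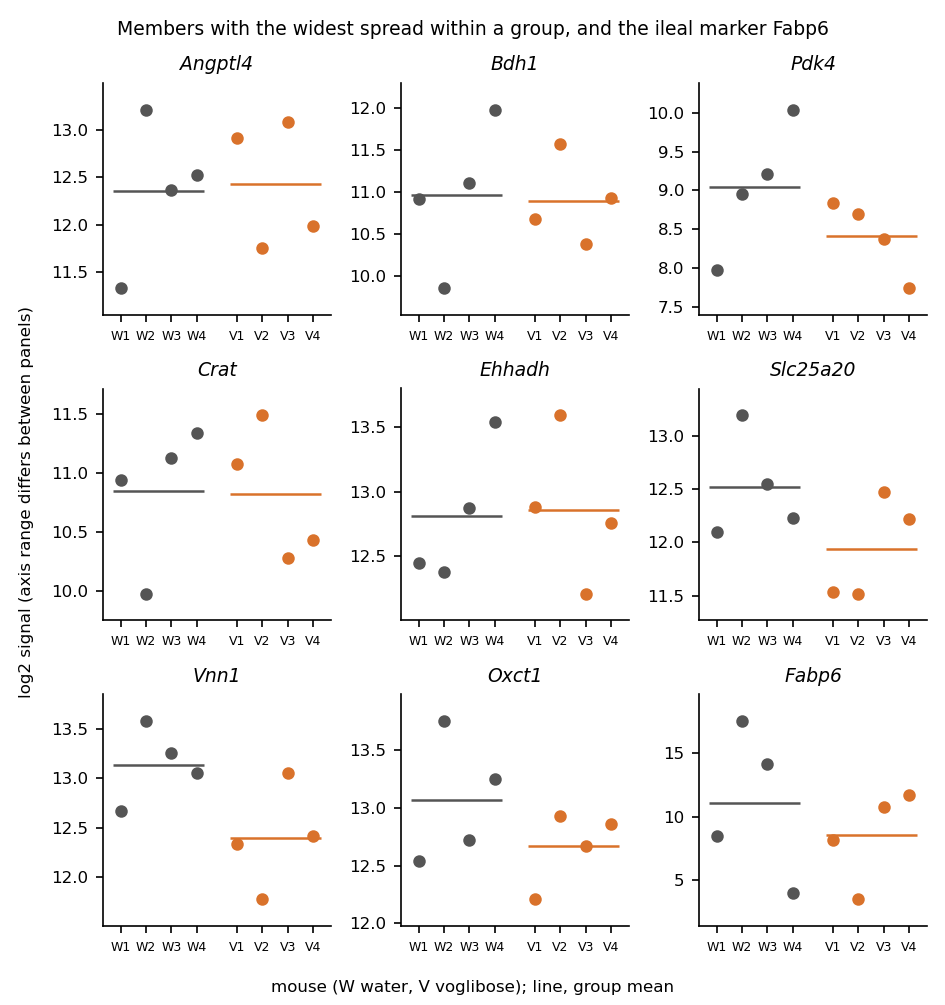
Log2 signal in each water (W) and voglibose (V) mouse for the 8 members with a within-group SD above the 90th percentile of all probe sets, and for the ileal marker Fabp6 (last panel), with lines at the group means and separate axes. Bdh1, Crat and Ehhadh are highest in W4 and V2, where Fabp6 reads 4.01 and 3.54, and Slc25a20 and Vnn1 are highest in W2, where Fabp6 reads 17.50.

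Related genes outside the set were read from 7 lists, on ketone bodies, mitochondrial and peroxisomal oxidation, peroxisome biogenesis, fatty acid activation and binding, regulators, and PPAR targets. Of 92 such genes measured, 74 lay above the median signal. Lower means in voglibose mice were seen in 61 (66.3%), against 50.9% of all probe sets and 57.0% of those above the median signal. An unadjusted p under 0.05 was found in 7 (7.61%), near the 7.52% of all probe sets. All 7 were lower, against 4.44% of all probe sets and 7.08% of those above the median signal, and 0 passed after adjustment (limma). The groups did not overlap in 6 (6.52%), all lower, against 2.53% of all probe sets and 3.69% of those above the median signal. In peroxisome biogenesis, 8 of 12 genes had lower means (median difference -0.0625). Pex13, a docking protein of the peroxisomal membrane, read 9.69, 9.64, 9.80 and 9.76 in water mice and 8.97, 9.23, 9.17 and 9.35 in voglibose mice, a difference of -0.54 ± 0.14 (SE; unadjusted p = 0.00216, adjusted p = 0.652, limma). Pex7, the receptor that brings thiolase into peroxisomes, read 9.69, 9.67, 9.93 and 9.98 in water mice and 9.29, 9.12, 9.34 and 9.56 in voglibose mice, a difference of -0.49 ± 0.15 (SE). Neither overlapped between groups, and both lay opposite in direction to Acaa1a and Decr2. Pex14, which docks with Pex13, differed by 0.43 ± 0.19 (SE) and Pex16 by -0.32 ± 0.16 (SE).

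Of 20 further genes listed with mitochondrial oxidation, 14 had lower means. The list also held the acetyl-CoA carboxylases Acaca and Acacb, which differed by -0.16 and 0.16. An unadjusted p under 0.05 was found in 2 (10.0%), near the 9.65% of the probe sets above the median signal. Mcee, the methylmalonyl-CoA epimerase, read 10.41, 10.60, 10.42 and 10.28 in water mice and 9.42, 9.52, 10.18 and 10.14 in voglibose mice, a difference of -0.61 ± 0.20 (SE). Pcca, a subunit of propionyl-CoA carboxylase, differed by -0.40 ± 0.15 (SE), and Mmut, the mutase, by -0.20 ± 0.14 (SE), and in all 3 genes the 4 voglibose mice lay below the 4 water mice. Such a separation was found in 3 of the 20 genes, against 2.53% of all probe sets and 3.69% of those above the median signal. The carrier Slc25a29 differed by 0.17 ± 0.14 (SE), at a signal below the array medians. Of 14 further peroxisomal oxidation genes, 8 had lower means (median difference -0.11), so the positive median of the peroxisomal members was not seen in them. Nudt7, a coenzyme A hydrolase of peroxisomes, read 7.77, 7.37, 8.03 and 8.21 in water mice and 6.75, 7.36, 7.48 and 7.29 in voglibose mice, a difference of -0.63 ± 0.22 (SE; unadjusted p = 0.0145, adjusted p = 0.652, limma). The related Nudt19 differed by -0.20 ± 0.16, and the dim Abcd2 and Hao2 by -0.39 ± 0.23 and -0.27 ± 0.24 (SE).

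Regulators of the pathway did not differ at an unadjusted p under 0.05 in any of 11 genes. Ppara itself averaged 9.39 ± 0.59 (SD, n = 4) with water and 9.48 ± 0.59 with voglibose, a difference of 0.10 ± 0.33 (SE; 95% interval -0.63 to 0.82), which was -0.16 without water mouse 2. The coactivator Ppargc1a differed by 0.31 ± 0.34 (SE; -0.04 without water mouse 2), the corepressor Nrip1 by 0.27 ± 0.18, the kinase subunit Prkaa1 by -0.34 ± 0.20 and Pparg by -0.39 ± 0.34 (SE; -0.67 without voglibose mouse 2 and -0.12 without voglibose mouse 3). Of 19 other PPAR targets, 12 had lower means. The acetyl-CoA thioesterase Acot12 differed most, with 12.20, 12.50, 12.63 and 12.69 in water mice and 10.77, 11.38, 10.27 and 11.41 in voglibose mice. The groups did not overlap (background 2.53%, or 3.69% above the median signal), and the difference was -1.55 ± 0.25 (SE; adjusted p = 0.652, limma). Acot4, a thioesterase of peroxisomes, differed by -0.47 ± 0.21, and malic enzyme Me1 by -0.70 ± 0.34 (SE), or -0.42 without water mouse 2. The fatty acid hydroxylase Cyp4a10 differed by -0.82 ± 0.55 (SE), which became -0.43 on leaving out water mouse 4 and -1.28 on leaving out water mouse 3. Among 12 genes of fatty acid activation and binding, 8 had lower means and none had an unadjusted p under 0.05. The fatty acid transporter Cd36 differed by 0.38 ± 0.31 (SE), which became 0.12 on leaving out water mouse 2 and 0.63 on leaving out water mouse 4. The acyl-CoA binding protein Dbi differed by 0.18 ± 0.15, and the activating enzymes Acsf2 and Slc27a4 by -0.39 ± 0.24 and -0.26 ± 0.17 (SE). The 4 further ketone body genes all had lower means: the lyase-like Hmgcll1 differed by -0.26 ± 0.19, the ketone body carrier Slc16a1 by -0.16 ± 0.18, its relative Slc16a7 by -0.05 ± 0.36 and Bdh2 by -0.01 ± 0.26 (SE). Hmgcll1 and Bdh2 read below the array medians, with means of 5.5 and 4.3. Slc16a7 and Bdh2 turned direction with some mouse left out.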

How the data were processed

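RNA from the ileum of 8 mice was measured on 1 array each. The log2 signals per probe set are as the authors deposited them; per the submitters' processing notes the tools were RMA and the Transcriptome Analysis Console, with versions, settings and build not given in the sources used here. The log2 scale was read from the values (2.09 to 19.55). Normalization across arrays hides changes in total RNA. Groups came from the labels, which describe 4 mice per group, so p-values measure the spread between mice; no scan or slide batch is given in the sources used here. Of 22206 probe sets, 19572 had 1 symbol, all updated by gene identifier through RefSeq (GRCm38.p6, names alone). The brightest probe set stood for a gene.

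All 22206 probe sets were fitted with limma 3.58.1 in R 4.3.3 (lmFit, eBayes, 2-sided, Benjamini-Hochberg, threshold 0.05). The fit was also run on simulated data with independent noise for each gene, which lack differences between mice that genes share. The median SE of a difference was 0.18, and the number of arrays limits the precision. The members, gene lists and alternatives were chosen with earlier results of these data known. Genes named are all members, the 4 smallest p in each further list, and Ppara, Acot12 and Cyp4a10. Mitochondrial members were the shuttle, dehydrogenases, matrix and auxiliary enzymes and electron transfer genes. Eci2 and Crat counted in neither compartment. Figures used matplotlib 3.10.9, and windows were aligned with Biopython 1.88.

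Alternatives were each mouse left out, both mice with Fabp6 at background left out, the number as a block, a further quantile normalization, equal array medians, a trended robust fit, no moderation, only brighter probe sets, the mean of a gene's probe sets, other compartment lists and a median over members.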

Additional observations from a re-analysis of the deposited data

Results flagged for a closer look

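Of 78 groups of 4 mice tested for a mouse far from the others (Dixon's test at 95%), 2 had one, and chance gives about 1 in 20. Etfa in water mouse 4 read 14.48, with the other water mice at 14.22 to 14.26. The mean of the pancreas markers, centred over the 8 mice, was 5.74 in voglibose mouse 2, with the other voglibose mice at -0.88 to -0.66.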

How the results depend on the processing

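Between alternatives, 0 probe sets passed the adjusted test in every setting run, so the named genes had no call that could change. Of the 34 members, 23 kept their direction in all 16 settings for single genes, and of 29 other named genes 25 did. Some of these settings cannot turn a member's direction, since they leave its difference as it is. They are the block, the trended robust fit, no moderation, only brighter probe sets and the mean of a gene's probe sets. Leaving out 1 mouse at a time, probe sets at an unadjusted p under 0.05 ran from 969 (without voglibose mouse 1) to 1906, and the members at that p from 5 to 10. The members with lower means ran from 22 to 26. The median difference ran from -0.17 to -0.07 over all members, from -0.20 to -0.11 over mitochondrial members and from 0.038 to 0.30 over peroxisomal members. The mitochondrial minus peroxisomal difference ran from -0.39 to -0.21. Members at that p numbered 5 without moderation of the variance and 4 without both water mouse 4 and voglibose mouse 2, and 988 probe sets were at that p among those above the median signal, where fewer were tested. The labels number mice 1 to 4 in both groups, but deviations of same-numbered mice correlated at only 0.02, -0.32, 0.01 and -0.18, so the numbers were not used as pairs. With the replicate number as a block, 7 members and 1529 probe sets were at that p, and 0 passed the adjusted test. With a further quantile normalization 50.5% of the probe sets at that p were lower, against 59.1% before, and the median of all probe sets moved from -0.005 to 0.0059. Differences that turned direction with 1 mouse left out had these ranges: Ehhadh -0.19 to 0.29, Hsd17b4 -0.12 to 0.068, Crat -0.32 to 0.15, Angptl4 -0.27 to 0.36, Hadh -0.0067 to 0.26, Slc16a7 -0.31 to 0.28, Bdh2 -0.22 to 0.23, Ppargc1a -0.037 to 0.59, Ppara -0.16 to 0.32, Cpt2 -0.23 to 0.15, Acads -0.037 to 0.19, Acox3 -0.10 to 0.11, Bdh1 -0.44 to 0.27, Etfdh -0.19 to 0.05, Eci2 -0.17 to 0.024. Some of these also turned after a further quantile normalization (Acox3 0.067, Hsd17b4 0.071, Crat 0.044, Bdh1 0.0045) and without both water mouse 4 and voglibose mouse 2 (Acads -0.14, Eci2 0.033, Acox3 0.093, difference of Bdh1 0.043, Slc16a7 0.12, Bdh2 0.20, Ppara -0.14). Of the 34 members, 14 more kept their direction but moved by over 1.5 times with some mouse left out, as did 16 of the 29 other named genes. The cause of these changes was not tested.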
